A study of Mus musculus with 15 samples.

Results

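The genes described here encode the enzymes of phase II metabolism in the cecum of mice, that is, the UDP-glucuronosyltransferases of the Ugt1 and Ugt2 families, the cytosolic sulfotransferases (Sult) and the glutathione S-transferases (Gst). Members were taken by name from the table of expression values, as every row whose symbol starts with Ugt1, Ugt2, Sult or Gst followed by a letter or digit and whose value was above 0 in at least 1 mouse. Of 65 rows with such names 49 were members, among 24279 genes above 0 in the whole table. The 49 members were 8 Ugt1, 8 Ugt2, 10 Sult and 23 Gst genes, and 1 of the last, Gstm2-ps1, is a pseudogene that the name rule keeps. RNA came from the emptied cecum of C57BL/6 mice, male by the study's methods and aged 20 weeks by the labels, and was sequenced as poly-A RNA. The start age and length of gavage in the methods make the mice younger than the labels do. For 30 days, 7 mice were gavaged 2 times a day with amphotericin B, neomycin, vancomycin, metronidazole and ampicillin (antibiotic-induced microbiome depletion, AIMD), and 8 mice received water by gavage (vehicle-treated). All 15 mice were wild type, and 1 library was made per mouse. Whole cecum holds epithelium, muscle, nerve, connective and immune cells, and in such bulk RNA fewer cells of a type and less RNA per cell cannot be told apart.

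Phase II enzymes join a polar group to drugs, dietary compounds, bile acids, hormones and bilirubin, which makes these compounds more soluble and lets transporters export them. Glucuronosyltransferases sit in the endoplasmic reticulum and use UDP-glucuronic acid, sulfotransferases work in the cytosol with the activated sulfate PAPS, and glutathione S-transferases use glutathione. Bacteria of the large intestine carry enzymes that remove glucuronide and sulfate groups from compounds that reach the lumen, so the cecal wall normally meets both conjugates and freed compounds.

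The Ugt1 genes share a single locus, in which each gene has its own first exon and start site and all use the same last exons. The stretches before the start sites of 3 of these genes are shown because their levels differed most between the groups. Those of Gsta3, Gsto1 and Gstt1 stand beside them as a member with motif matches that fell, a member without that rose and a member without that fell the most. They are RefSeq sequences on GRCm38.p6, written 5′ to 3′ on the gene's strand and ending at the start that RefSeq annotates, which for Ugt1a7c and Gsta3 lies before and for Gstt1 within the gene as GENCODE M21 gives it, and none overlaps an annotated exon. The chr1:88211709-88211958 stretch (plus strand) lies in introns of other Ugt1a genes, as do chr1:88094751-88095000 and chr1:88134559-88134808 (plus strand). The others are chr1:21240335-21240584 (plus strand), chr19:47854723-47854969 (plus strand, within an intron of Cfap43, 3 bases shorter than the rest to stay clear of an exon) and chr10:75797732-75797981 (minus strand, within an intron of a longer annotated Gstt1 transcript). Capitals mark matches on either strand to the antioxidant response element TGACNNNGC, bound by NRF2, or to GTTAAT, the core of the site bound by HNF1 proteins.
Ugt1a1: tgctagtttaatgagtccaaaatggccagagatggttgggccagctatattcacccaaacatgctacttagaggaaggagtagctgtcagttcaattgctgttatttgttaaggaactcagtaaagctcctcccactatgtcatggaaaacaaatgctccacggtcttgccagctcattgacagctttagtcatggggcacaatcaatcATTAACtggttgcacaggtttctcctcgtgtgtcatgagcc
Ugt1a7c: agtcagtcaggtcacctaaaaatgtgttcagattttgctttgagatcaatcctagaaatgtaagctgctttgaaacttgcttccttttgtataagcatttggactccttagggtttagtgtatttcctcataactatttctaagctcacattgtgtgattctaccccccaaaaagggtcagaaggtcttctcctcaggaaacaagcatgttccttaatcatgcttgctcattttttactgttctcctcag
Ugt1a6a: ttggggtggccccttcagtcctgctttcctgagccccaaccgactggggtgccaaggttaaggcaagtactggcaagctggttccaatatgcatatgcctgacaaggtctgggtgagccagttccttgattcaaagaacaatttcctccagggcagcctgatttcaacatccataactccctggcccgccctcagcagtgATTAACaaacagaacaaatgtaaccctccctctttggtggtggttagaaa
Gsta3: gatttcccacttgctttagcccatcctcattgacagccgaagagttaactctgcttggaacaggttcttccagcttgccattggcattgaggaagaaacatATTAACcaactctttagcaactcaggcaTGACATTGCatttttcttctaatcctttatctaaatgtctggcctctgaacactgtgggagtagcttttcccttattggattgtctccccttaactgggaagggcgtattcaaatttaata
Gsto1: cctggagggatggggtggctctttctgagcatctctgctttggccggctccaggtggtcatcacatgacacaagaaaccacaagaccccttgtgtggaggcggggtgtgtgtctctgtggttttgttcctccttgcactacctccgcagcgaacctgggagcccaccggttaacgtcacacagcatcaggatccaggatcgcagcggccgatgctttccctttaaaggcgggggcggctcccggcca
Gstt1: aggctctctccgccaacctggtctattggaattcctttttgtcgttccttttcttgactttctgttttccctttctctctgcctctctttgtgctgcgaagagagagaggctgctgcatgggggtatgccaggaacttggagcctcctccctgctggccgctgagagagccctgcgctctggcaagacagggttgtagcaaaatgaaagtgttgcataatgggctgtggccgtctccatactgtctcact

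A promoter was listed for 44 of the 49 members, and some had more than 1, which made 55 promoters. Within 250 bases before the start the antioxidant response element was found in 3 of these 55 (of Gsta3, Gstm5 and Gstm7), against 10.2% of all 32851 promoters in the table. The xenobiotic response element GCGTG, bound by the aryl hydrocarbon receptor, was found in 11 of the 55, which belong to 10 members, against 28.2% of all promoters. It is absent from the 6 stretches above. GTTAAT was found in 7 of the 55, 1 in each of 7 members (Ugt1a1, Ugt1a6a, Ugt1a9, Ugt2a3, Sult1a1, Sult1d1 and Gsta3), against 6.43% of all promoters. In Ugt1a1 this match ended 36 bases before the start and in Ugt1a6a 45 bases before it, both on the minus strand, while Ugt1a7c had none. The motifs overlapped in no stretch shown. A match is a description of the letters and not a measured binding site.

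Values are FPKM, reads scaled by exon length and by the depth of the library, so levels can be compared between genes. Where 2 FPKM values or ranges of a gene stand side by side without the names of the groups, that of the AIMD mice comes first. The reads behind the FPKM could be recovered and came to between 8679710 and 18108692 per AIMD mouse and between 4372450 and 14406007 per vehicle-treated mouse. As a check of the tissue label, 10 epithelial markers summed to FPKM of 6691 to 10180 in AIMD mice against 5857 to 8033 in vehicle-treated mice. Of 7 markers of liver, where these enzymes are abundant, only Ttr reached the filter on low values, with means of 24.1 in AIMD and 23.6 in vehicle-treated mice, and the list summed to 19.6 to 35.8 and 9.15 to 38.8. Albumin had means of 0.0876 and 0.0814, and the fibrinogen gene Fgb was at 0 in all mice. Vehicle mouse 8 stood apart. It had the fewest reads of all mice, 4372450, and the next lowest, vehicle mouse 5, had 6486333. Its 7 smooth muscle markers summed to 3052, against at most 1391 in the other vehicle-treated mice and 216 to 819 in AIMD mice, and its 6 enteric neuron and glia markers to 59.6, against at most 18.9 and 2.22 to 3.73. Mice also fell on either side of 0 on an axis drawn through 14 circadian clock genes, and the labels give no time of sacrifice. Counts of members called are therefore given also without vehicle mouse 8 and within each side of the clock axis.

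Of the 49 members, 31 reached FPKM of 0.5 in at least 7 mice and were tested. AIMD mice had higher levels of 5 members and lower levels of 11 (limma, adjusted p under 0.05, across 11983 genes), against 19.4% of all genes tested called higher and 16.7% called lower (36.1% together). The median log2 fold change of AIMD over vehicle, taken on FPKM + 0.5 throughout, was -0.33 over the 31 members and 0.0062 over all genes. The groups did not overlap for 4 of the tested members, Ugt1a1, Gsta1 and Gsto1 (higher) and Gstt1 (lower), against 5.27% of all genes higher without overlap and 3.30% lower (8.56% together). Gst genes made up 2 of the 5 that rose and all 11 that fell. Without vehicle mouse 8, 5 members were called higher and 17 lower (20.1% and 18.7% of all genes), the added ones being Gstm3, Gstm6, Gstz1, Sult1a1, Ugt2b5 and Ugt2b35.

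**Figure D1:**
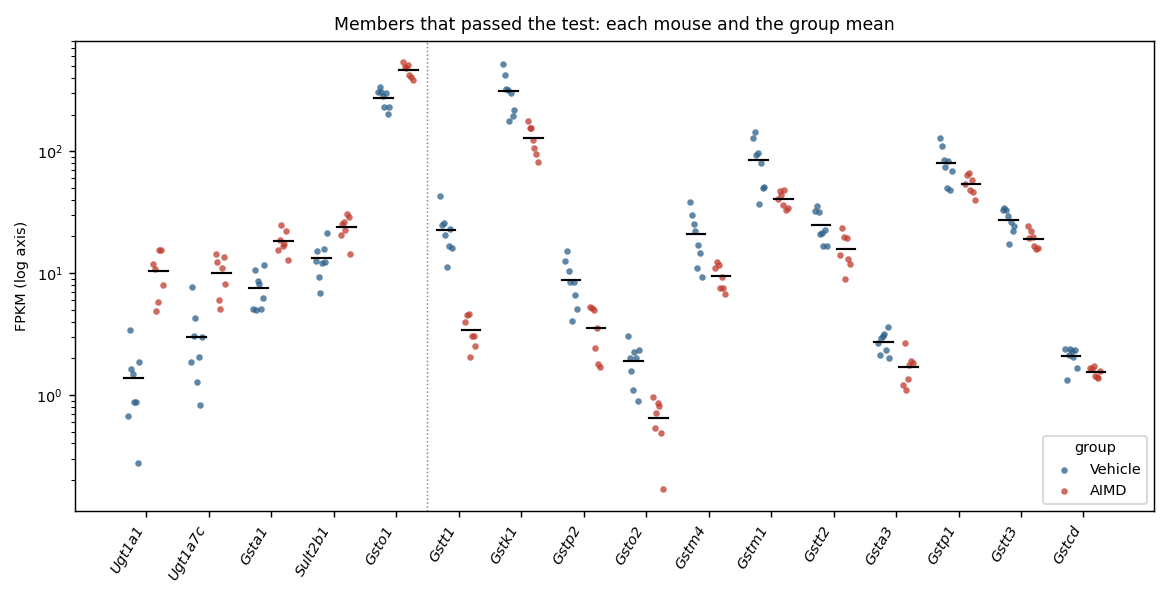
FPKM on a log axis of the 16 members that passed the test, with 1 point per mouse (blue, 8 vehicle-treated mice; red, 7 AIMD mice) and a black line at each group mean; members left of the dotted line rose and those right of it fell. The points of the groups are separate for Ugt1a1, Gsta1, Gsto1 and Gstt1 and overlap for the other 12 members.

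Ugt1a1, the enzyme that conjugates bilirubin (chromosome 1, 88211959 to 88218997, plus strand, in GENCODE M21 on GRCm38 like all positions here), rose the most of all members. Its FPKM ran from 4.88 through a median of 10.8 to 15.6 in AIMD mice, against a range from 0.275 through 1.18 to 3.43 in vehicle-treated mice. Every AIMD mouse was thus above every vehicle-treated mouse. Means were 10.3 ± 4.30 (SD, n = 7) against 1.39 ± 0.98 (SD, n = 8), and the log2 fold change came to 2.56 ± 0.31 (SE, limma adjusted p = 1.58e-05). Ugt1a7c, an enzyme for phenols (chromosome 1, 88095062 to 88220002, plus strand), had FPKM of 5.07, 11.0 and 14.4 (lowest, median, highest) in AIMD mice against 0.832, 2.52 and 7.65 in vehicle-treated mice. The groups overlapped, since vehicle mouse 2 was above 2 AIMD mice, and all but 2 AIMD mice exceeded every vehicle-treated mouse. The log2 fold change was 1.72 ± 0.33 (SE, limma adjusted p = 0.000757). Ugt1a1 and Ugt1a7c were the only Ugt1 members tested. Vehicle mouse 2 was the highest of its group in both.

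Ugt1a6a, which also conjugates phenols, stayed below the filter and is named because its groups, seen afterwards, did not overlap. Its FPKM were 0.474 to 0.883 in AIMD mice against 0.0449 to 0.333 in vehicle-treated mice, from 268 and 49 reads in all. The other 5 Ugt1 members, Ugt1a2, Ugt1a5, Ugt1a6b, Ugt1a8 and Ugt1a9, had group means of at most 0.0411, and Ugt1a10 was at 0 in all 15 mice. Levels within the locus carry a limit. Of the annotated exon bases 58.9% of Ugt1a1, 54.6% of Ugt1a7c and 50.3% of Ugt1a6a lie in exons that other Ugt1a genes share, and reads from those bases cannot be given to 1 gene. Since Ugt1a10 has these exons too and was at 0, the shared exons were not counted for every gene. If all reads came from the unshared bases, mean FPKM over those bases would be 25.2 and 3.38 for Ugt1a1 and 22.2 and 6.60 for Ugt1a7c (AIMD and vehicle).

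The Ugt2 family, enzymes for bile acids, steroids and fatty acids, was not called at any of its 4 tested members. Ugt2b34 carried 80.9% of the family's summed FPKM in AIMD mice against 81.0% in vehicle-treated mice, with 236 ± 30.5 (SD, n = 7) against 265 ± 75.8 (SD, n = 8) FPKM (log2 fold change -0.12 ± 0.17, limma adjusted p = 0.618). Ugt2b5 followed with 47.0 ± 7.01 and 53.6 ± 18.1 FPKM (limma adjusted p = 0.844). Here 1 mouse decided the call. Vehicle mouse 8 had 13.9 FPKM and the other 7 had 48.1 to 74.7, and without it the log2 fold change was -0.33 (limma adjusted p = 0.0422). Ugt2b35 had means of 3.74 and 5.06 FPKM and was called only without vehicle mouse 8 (log2 fold change -0.50, limma adjusted p = 0.00999). Ugt2b36 had means of 5.03 and 3.37 and a limma adjusted p of 0.111. The windows of 50 bases, the length of a read, that also occur in other genes made up 41.7% of Ugt2b5, most of them shared with Ugt2b38. Ugt2b38 itself was at 0 in all mice. The 4 Ugt2 members below the filter, Ugt2a1, Ugt2a3, Ugt2b1 and Ugt2b37, had group means of at most 0.0504.

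Sulfotransferases had the highest mean summed FPKM of the 4 families in both groups, with sums of 994 to 1381 in AIMD mice against 466 to 1740 in vehicle-treated mice. Of 5 tested, Sult2b1 alone, which sulfates cholesterol and other sterols (chromosome 7, 45729983 to 45784669, minus strand), passed the test with all mice. Its FPKM were 14.4, 25.4 and 30.4 (lowest, median, highest) in AIMD mice against 6.90, 12.4 and 21.5 in vehicle-treated mice. In 5 of 7 AIMD mice it was above every vehicle-treated mouse, and vehicle mouse 8 was the highest of its group. The means were 24.1 ± 5.47 (SD, n = 7) against 13.2 ± 4.41 (SD, n = 8), and the log2 fold change came to 0.87 ± 0.20 (SE, limma adjusted p = 0.00341).

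Sult1a1, the main phenol sulfotransferase, led the family in vehicle-treated mice with 44.9% of its summed FPKM, and Sult1d1, which sulfates catecholamines, led in AIMD mice with 35.6%. Sult1a1 had 371 ± 62.9 FPKM in AIMD mice against 565 ± 192 in vehicle-treated mice (log2 fold change -0.48 ± 0.29, limma adjusted p = 0.204). The 7 vehicle-treated mice other than mouse 8 had 543 to 760 FPKM, above all AIMD mice, which had 280.1 to 473, while mouse 8 had 131. Without mouse 8 the log2 fold change was -0.76 (limma adjusted p = 0.000397). Sult1d1 had 417 ± 54.2 and 354 ± 203 FPKM (limma adjusted p = 0.261) and a single high vehicle-treated mouse, mouse 5 at 789. Without that mouse it was called higher in AIMD mice (log2 fold change 0.61, limma adjusted p = 0.0499). Sult1b1, which sulfates phenols and thyroid hormones, had 294 ± 56.7 and 266 ± 58.1 FPKM (limma adjusted p = 0.489), and Sult1c2 had 63.5 ± 7.56 and 58.3 ± 19.0 (limma adjusted p = 0.498). Of the 5 Sult members below the filter, Sult4a1, a neuronal member, had mean FPKM of 0.258 and 0.900 and its highest value, 2.59, in vehicle mouse 8, the mouse with the most enteric neuron and glia markers. The other 4, Sult1c1, Sult1e1, Sult5a1 and Sult6b1, had group means of at most 0.131.

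**Figure D2:**
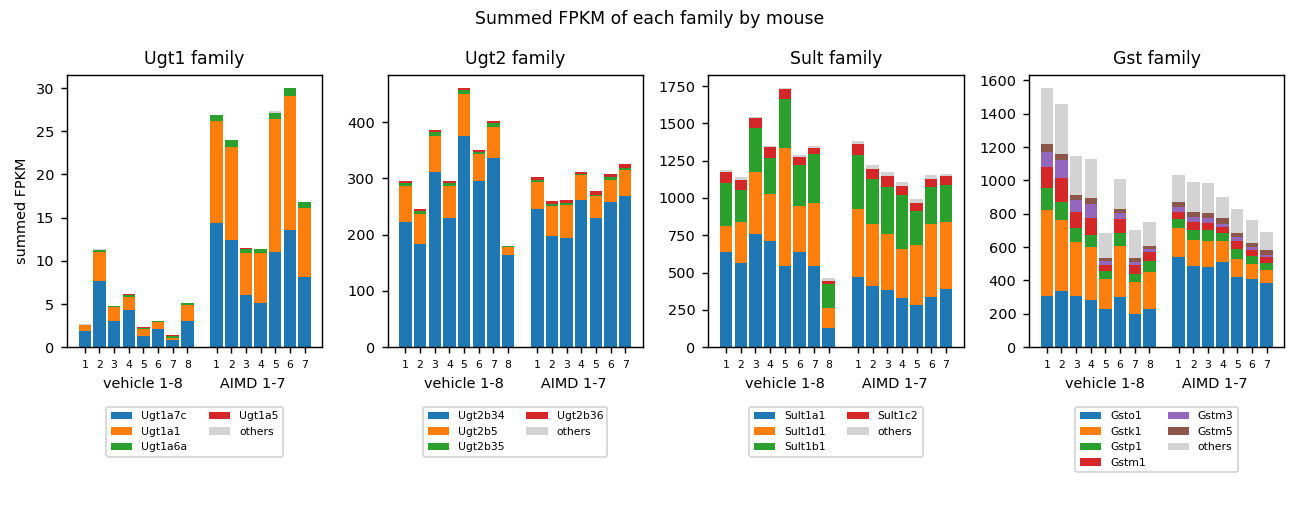
Summed FPKM of each family in each mouse (bars: vehicle 1 to 8, then AIMD 1 to 7), split by the leading members, with grey for the others; each panel has its own axis starting at 0. Ugt1 sums were 1.42 to 11.3 in vehicle-treated mice and 11.4 to 30.1 in AIMD mice, and vehicle mouse 8 had the lowest Ugt2 and Sult sums.

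Gst genes were 20 of the 31 tested members, of which 2 were higher (10% of the 20, against 19.4% of all genes), 11 lower (55%, against 16.7%) and 7 not called, with a median log2 fold change of -0.56. Without vehicle mouse 8, 2 were higher and 14 lower, against 20.1% and 18.7% of all genes. They divide into classes that differ in sequence and substrates, and the omega class held both a gene that rose and a gene that fell. Gsto1 (chromosome 19, 47854970 to 47864790, plus strand), an omega enzyme that reduces dehydroascorbate and methylated arsenic, had 384, 482 and 539 FPKM (lowest, median, highest) in AIMD mice against 201, 293 and 338 in vehicle-treated mice. No AIMD mouse was within the range of the vehicle-treated mice. Means were 462 ± 57.8 (SD, n = 7) against 275 ± 47.9 (SD, n = 8), and the log2 fold change came to 0.76 ± 0.13 (SE, limma adjusted p = 0.000471). Gsto2, the other omega gene, starts 743 bases beyond the end of Gsto1 on the same strand and went the other way. Its FPKM were 0.168, 0.713 and 0.959 in AIMD mice against 0.886, 2.01 and 3.07 in vehicle-treated mice. This was a log2 fold change of -1.04 ± 0.20 (SE, limma adjusted p = 0.000978), and 6 of 7 AIMD mice were below every vehicle-treated mouse. On the FPKM + 0.5 scale the log2 ratio of Gsto1 to Gsto2 was 8.32 to 9.16 in AIMD mice against 6.34 to 7.47 in vehicle-treated mice. The added 0.5 makes this ratio smaller than that of the FPKM themselves. Gsto2 was low, with 98 reads over all AIMD mice and 3 in the lowest of them. This ratio and the theta ratios below, on the same scale, were chosen after the values were seen and are given without a test.

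Gstt1, a theta enzyme that acts on small halogenated compounds (chromosome 10, 75783813 to 75798584, minus strand), fell the most of all members. FPKM were 2.04, 3.04 and 4.59 (lowest, median, highest) in AIMD mice against 11.3, 21.7 and 43.1 in vehicle-treated mice. The lowest vehicle-treated mouse was above the highest AIMD mouse. The means of 3.38 ± 0.99 (SD, n = 7) against 22.6 ± 9.60 (SD, n = 8) gave a log2 fold change of -2.52 ± 0.23 (SE, limma adjusted p = 8.33e-07). Its theta neighbours in the same cluster fell less. Gstt2 had 15.8 ± 5.12 and 24.7 ± 7.42 FPKM, with ranges of 9.03 to 23.4 and 16.6 to 35.3, and a log2 fold change of -0.64 ± 0.21 (SE, limma adjusted p = 0.0256), a call lost when AIMD mouse 4, 6 or 7 was left out (adjusted p of at most 0.0547) or no filter was applied (0.052). Gstt3 had 19.1 ± 3.21 and 27.5 ± 5.94 FPKM, with ranges of 15.6 to 24.1 and 17.4 to 33.9, and a log2 fold change of -0.50 ± 0.15 (SE, limma adjusted p = 0.015). Gstt4 stayed below the filter with 1 read over all AIMD mice and 5 over all vehicle-treated mice. The log2 ratio of Gstt1 to Gstt2 was -2.49 to -1.70 in AIMD mice and -0.88 to 0.40 in vehicle-treated mice, and that of Gstt1 to Gstt3 was -2.99 to -1.98 and -0.65 to 0.39, so neither ratio overlapped between the groups. Gstt3 and Gstt1 lie 2398 bases apart, and in Gstt3 13.6% of the exon bases are shared with the overlapping gene Gm20441.

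Gstk1, the kappa enzyme of mitochondria and peroxisomes (chromosome 6, 42245935 to 42250447, plus strand), was the most abundant Gst gene in vehicle-treated mice. It had 81.7, 125 and 177 FPKM (lowest, median, highest) in AIMD mice against 177, 310 and 518 in vehicle-treated mice. The ranges met at their ends, where AIMD mouse 1 (176.8) and vehicle mouse 5 (176.6) had nearly the same level, and the other 6 AIMD mice lay below all vehicle-treated mice. Means were 127 ± 35.3 (SD, n = 7) against 310 ± 118 (SD, n = 8), and the log2 fold change came to -1.24 ± 0.23 (SE, limma adjusted p = 0.00072). With Gsto1 higher and Gstk1 lower, the make-up of the summed Gst FPKM differed. In AIMD mice the omega class was 52.6% ± 2.98 (SD, n = 7) of the sum and in vehicle-treated mice 27.4% ± 4.56 (SD, n = 8), and the kappa class 14.2% ± 1.98 and 28.9% ± 2.17. The sum itself was 692 to 1030 in AIMD mice against 686 to 1557 in vehicle-treated mice.

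The alpha class, whose enzymes act on steroids and products of lipid peroxidation, held a member that rose and one that fell. Gsta1 (chromosome 9, 78230656 to 78242684, plus strand) had 12.7, 17.2 and 24.9 FPKM (lowest, median, highest) in AIMD mice against 4.94, 7.17 and 11.7 in vehicle-treated mice. The ranges were apart, with a log2 fold change of 1.25 ± 0.20 (SE, limma adjusted p = 0.000151). The identity of the gene is uncertain, since 90.5% of its windows of 50 bases also occur in other genes, most in Gm3776, which was not analysed here. Gsta3 had 1.10, 1.75 and 2.67 FPKM in AIMD mice against 2.00, 2.81 and 3.62 in vehicle-treated mice. AIMD mouse 2 was alone within the vehicle range, and the log2 fold change was -0.58 ± 0.15 (SE, limma adjusted p = 0.00704). Gsta4, which conjugates 4-hydroxynonenal, had the highest level of the class, 22.5 ± 5.68 and 22.8 ± 9.96 FPKM (limma adjusted p = 0.896). Gsta2 was below the filter with 8 and 1 reads.

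The mu class is a cluster on chromosome 3 whose enzymes act on epoxides and other electrophiles. All 7 tested genes had negative log2 fold changes, and 2 passed the test. Gstm1 (108012255 to 108017973, minus strand) had 33.2, 40.3 and 48.2 FPKM (lowest, median, highest) in AIMD mice against 37.1, 87.1 and 144 in vehicle-treated mice, and the log2 fold change was -0.94 ± 0.25 (SE, limma adjusted p = 0.00749). Gstm4 (108040408 to 108044894, minus strand) had 6.76, 9.25 and 12.5 FPKM against 9.37, 19.7 and 38.7, a log2 fold change of -1.01 ± 0.26 (SE, limma adjusted p = 0.00638). In both genes the AIMD mice lay in the lower part of the vehicle range or below it. The SD of Gstm1 was 6.09 FPKM in AIMD mice and 38.3 in the vehicle group.

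Of the mu genes not called, Gstm3 had the largest change, with 23.8 ± 6.44 FPKM in AIMD mice against 56.1 ± 35.9 in vehicle-treated mice (log2 fold change -0.96 ± 0.38, limma adjusted p = 0.0556). It was called without vehicle mouse 5, 7 or 8 (limma adjusted p of 0.0302, 0.0323 and 0.015). Gstm6 had 6.96 ± 1.30 and 13.1 ± 6.83 FPKM (limma adjusted p = 0.0709) and was called without vehicle mouse 5 or 8 (0.0429 and 0.00464). Gstm2 had 23.0 ± 4.48 and 33.0 ± 15.9 (limma adjusted p = 0.257) and Gstm5 28.7 ± 4.44 and 30.0 ± 9.46 (limma adjusted p = 0.937). Gstm7 was the lowest, with means of 5.09 and 6.36 (limma adjusted p = 0.653). Reads that could stem from another gene were most frequent in Gstm3, where 28.8% of the windows also occur elsewhere, and in Gstm1, where 18.9% do.

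**Figure D3:**
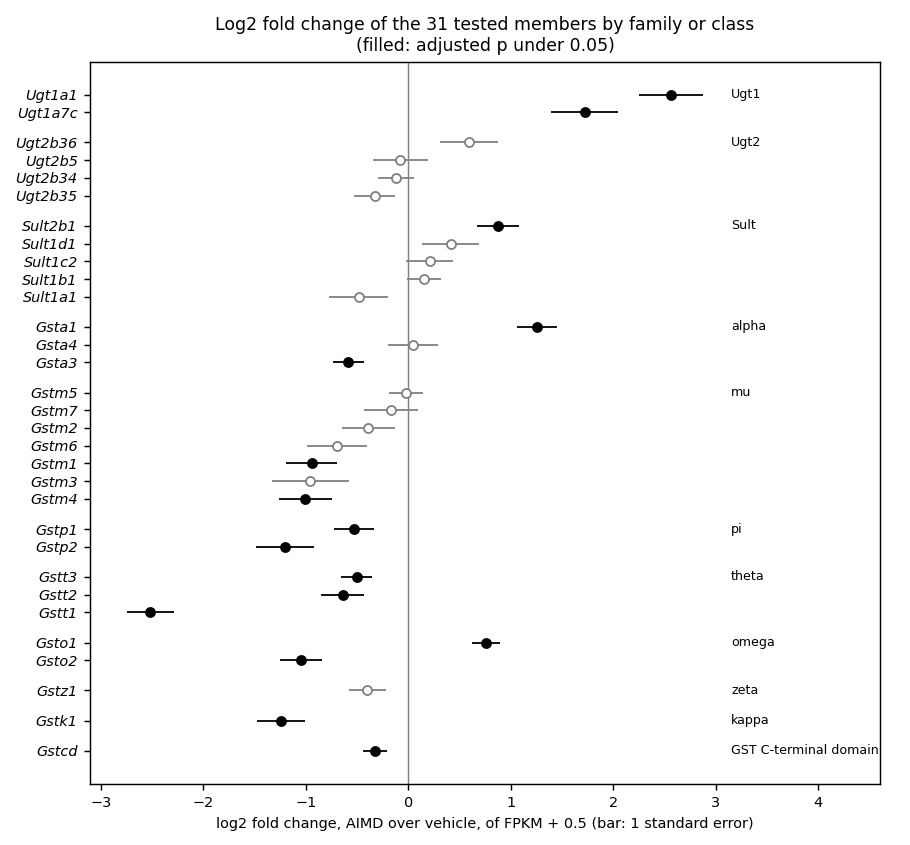
Log2 fold change of AIMD over vehicle, on the FPKM + 0.5 scale, of the 31 tested members ordered by family and, for Gst genes, by class, with bars of 1 standard error; filled points passed the test and open points did not. Points lie to the left of 0 for 17 of 20 Gst genes, with Gsta1, Gsta4 and Gsto1 to the right.

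Of the pi class, detoxifying enzymes that also bind signalling kinases, Gstp1 had 40.0, 53.5 and 66.5 FPKM (lowest, median, highest) in AIMD mice against 47.9, 78.5 and 128 in vehicle-treated mice. This was a log2 fold change of -0.53 ± 0.20 (SE, limma adjusted p = 0.0423), and leaving out any of 10 mice (AIMD 1 and 4 to 7, vehicle 1 to 4 and 6) ended the call, with an adjusted p of at most 0.0873. So did the fit without a filter (0.0774) and the exact permutation test (0.0645). Gstp2, its close copy 2299 bases away, had 1.69, 3.53 and 5.28 FPKM against 4.03, 8.46 and 15.2, a log2 fold change of -1.20 ± 0.28 (SE, limma adjusted p = 0.00362). In 4 of 7 AIMD mice it was below all vehicle-treated mice. Both values are uncertain, because 33.7% of the windows of Gstp1 and 54.3% of those of Gstp2 also occur in other genes, mainly in each other. Gstz1, which takes part in tyrosine breakdown, had 16.7 ± 2.10 and 23.1 ± 8.55 FPKM (limma adjusted p = 0.0917) and was called without vehicle mouse 8 (0.0327). Gstcd, named for its C-terminal domain only, had 1.37 to 1.73 and 1.33 to 2.40 FPKM and a log2 fold change of -0.32 ± 0.12 (SE, limma adjusted p = 0.0377), a call that ended when any of 11 mice was left out (AIMD 1 and 4 to 7, vehicle 1 and 3 to 7), with an adjusted p of at most 0.0772. The call also ended without a filter (0.0627) and after quantile normalization (0.0564).

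In AIMD mice 1 to 3 and vehicle-treated mice 1 to 4 the clock axis lay between -1.15 and -0.76, and in AIMD mice 4 to 7 and vehicle-treated mice 5 to 8 between 0.57 and 1.37, with no mouse in between. The axis is the first principal component of 14 clock genes after removing each group's mean, so the sides come from the data and not from labels. The study's model held time of sacrifice, and whether the sides match those times was not tested. In 7 of the 20 tested Gst genes (Gstk1, Gstm2, Gstm3, Gstm4, Gstm7, Gstp2 and Gstz1) the mice on the second side were below those on the first without overlap in both groups, as in Sult1c2 among the other 11 tested members, against 1.94% of all genes. The reverse was seen in 0 members, against 1.66% of all genes. Gstm3 and Gstt1 are shown as examples chosen after their values were seen. Gstm3 had 88.0, 107, 72.4 and 84.5 FPKM in vehicle-treated mice 1 to 4 and 21.6, 36.9, 21.7 and 16.7 in mice 5 to 8. In AIMD mice it had 30.4, 29.3 and 31.0 in mice 1 to 3 and 18.5, 22.8, 18.6 and 15.6 in mice 4 to 7. The lower level of AIMD mice was thus seen on the side of the first 4 vehicle-treated mice, and on the other side the ranges overlapped. Gstt1 had 20.5 to 43.1 FPKM in vehicle-treated mice 1 to 4 and 11.3 to 22.9 in mice 5 to 8, and in AIMD mice 3.97 to 4.59 in mice 1 to 3 and 2.04 to 3.04 in mice 4 to 7. It too was lower on the second side in AIMD mice, but the treatment groups stayed apart on both sides.

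Within the first side (3 AIMD and 4 vehicle-treated mice), 5 members were higher and 9 lower, against 7.60% and 5.68% of all genes (limma adjusted p under 0.05). Within the second (4 and 4 mice), 4 were higher and 5 lower, against 16.3% and 13.6% of all genes. Both comparisons came from a single limma fit to all mice, vehicle mouse 8 included, in which the sides shared the residual spread. The p-values of each side therefore rest also on the spread of the other side. Ugt1a1 (log2 fold change 2.11 on the first side and 2.99 on the second), and in the same order Ugt1a7c (1.35 and 2.13), Gsta1 (1.40 and 1.13), Gsto1 (0.71 and 0.84), Gstt1 (-2.52 and -2.42), Gstk1 (-1.27 and -1.11), Gstp2 (-1.07 and -1.19) and Gstm4 (-1.24 and -0.68) were called on both sides. Gstm1 had -1.37 and -0.48 and Gstm3 -1.51 and -0.30, and these were called on the first side only. So were Sult2b1 (1.15 and 0.61), Gstt3 (-0.56 and -0.39), Gstm6 (-1.07 and -0.27) and Gstz1 (-0.58 and -0.17). Gsto2 (-0.93 and -1.13) was called on the second side only. Gsta3, Gstt2, Gstp1 and Gstcd, which were called across all mice, were called on neither side. The difference between the sides was tested as an interaction and was called with limma for 0 of 11983 genes (0%), while 536 genes had an unadjusted p under 0.05 (1000 without vehicle mouse 8, again with 0 called). Of the members, 5 did so, all of the mu class (Gstm1, Gstm2, Gstm3, Gstm5 and Gstm7), and 1 of them, Gstm3, had an unadjusted limma p of 0.000948, which does not pass the adjusted threshold. Without vehicle mouse 8 the 5 members were Gstm1, Gstm3, Gstm5, Gstm7 and Sult1b1, the last not of the mu class. With the axis as a covariate 5 members were called higher and 14 lower, against 22.7% and 20.0% of all genes, the added ones being Gstm3, Gstm6 and Gstz1. The part of the clock axis in these levels was not tested further.

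**Figure D4:**
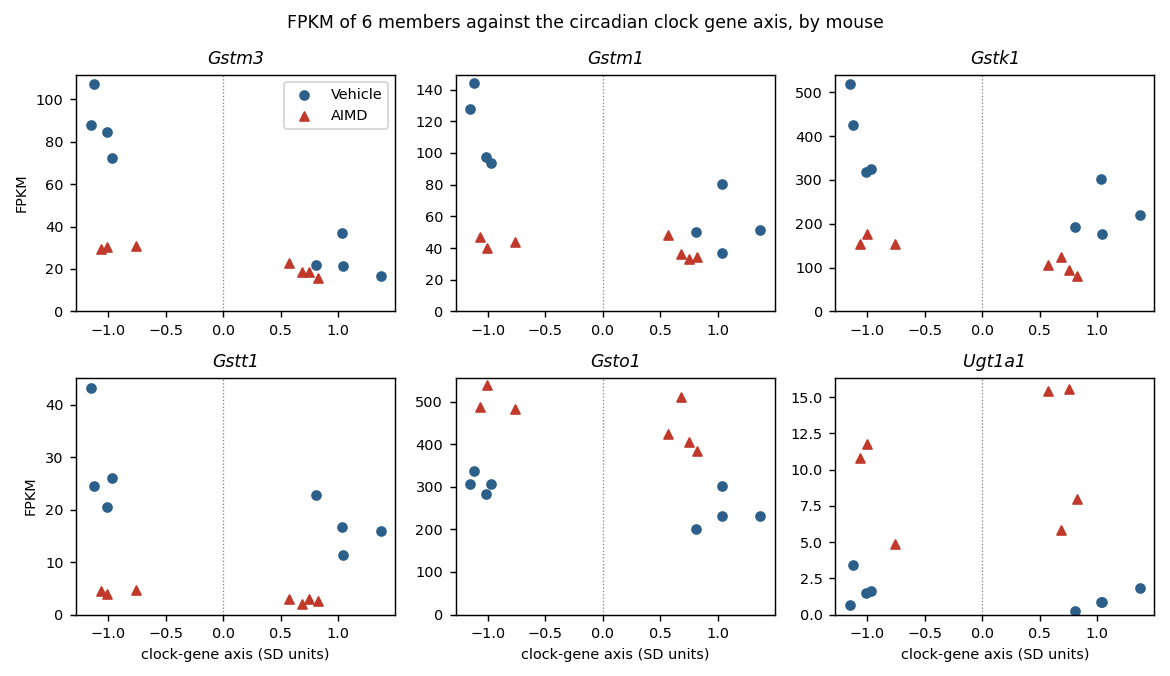
FPKM of 6 members (axes from 0) against the position of each mouse on the clock gene axis, in standard deviation units, with blue circles for vehicle-treated and red triangles for AIMD mice. In Gstm3 and Gstm1 the vehicle-treated mice on the left are high, and on the right the ranges of the groups overlap. In Gstm1 this overlap rests on vehicle mouse 5 alone (37.1), and vehicle mice 6 to 8 (49.9 to 80.5) lie above all AIMD mice. The groups stay apart on both sides in Gstk1, Gstt1, Gsto1 and Ugt1a1.

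The counts of the lists that follow stand against 19.4% of all genes called higher and 16.7% called lower. Of 8 tested genes for glucuronic acid supply 2 rose and 2 fell (median log2 fold change -0.17). Ugdh, which makes UDP-glucuronic acid, had 183 ± 18.5 and 215 ± 45.4 FPKM (limma adjusted p = 0.258), while the transporters that carry nucleotide sugars, Slc35d1 (log2 fold change -0.76, limma adjusted p = 0.00046) and Slc35d2 (-0.70, limma adjusted p = 0.000265), fell. Pgm1 (0.55, limma adjusted p = 0.046) and Slc35b4 (0.36, limma adjusted p = 0.0217) rose. Of 14 genes for sulfate activation and supply 2 rose and 2 fell (median 0.07). Neither PAPS synthase was called, Papss1 at 42.2 ± 5.53 and 39.6 ± 4.10 FPKM (limma adjusted p = 0.582) and Papss2 at 695 ± 116 and 612 ± 199 (limma adjusted p = 0.375). Bpnt1 and Impad1, phosphatases that clear the spent donor, rose without overlap of the groups (log2 fold change 0.67 and 0.52, limma adjusted p = 0.0036 and 0.00242), and Tst and Cdo1 fell (-0.61 and -0.42, limma adjusted p = 0.0435 and 0.0455).

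Of 15 genes for glutathione synthesis and recycling 1 rose and 1 fell (median log2 fold change 0.0066). Gclc, the catalytic subunit of the first step of synthesis, had 63.8 ± 14.1 and 43.0 ± 13.7 FPKM (log2 fold change 0.60, limma adjusted p = 0.0266), and its modifier subunit Gclm 20.5 ± 3.05 and 24.5 ± 6.28 (limma adjusted p = 0.28). Ggt1, which cleaves glutathione and its conjugates at the cell surface, had 0.804 ± 0.39 and 4.53 ± 2.03 FPKM with no overlap (log2 fold change -1.90, limma adjusted p = 1.12e-05). Of 6 export pumps (median -0.17) 1 fell, Abcb1a (-0.57, limma adjusted p = 0.0435). Of 8 deconjugating enzymes (median 0.0146) the mouse's own β-glucuronidase Gusb was not called, Sumf2 fell (-0.46, limma adjusted p = 0.0161) and Arsg, at mean FPKM under 1, rose (0.48, limma adjusted p = 0.0268). Sts was not analysed here. Of 16 other conjugating enzymes 2 rose and 3 fell (median -0.06). Among these, Mgst2, a microsomal glutathione transferase, had 48.9 ± 11.9 and 102 ± 31.6 FPKM (-1.03, limma adjusted p = 0.000643), Hnmt (-0.69, limma adjusted p = 0.0419) and the arsenic methyltransferase As3mt (-0.49, limma adjusted p = 0.0259) fell too, and Nat2, an arylamine acetyltransferase, rose (0.66, limma adjusted p = 0.0165). Hpgds also rose, at mean FPKM under 1. Without vehicle mouse 8, Pgm1, Abcb1a and Hnmt were not called (limma adjusted p of 0.0548, 0.063 and 0.057), which left 1 gene higher in the glucuronic acid list and 0 export pumps called, while 3 other conjugating enzymes were higher and 4 lower. Some calls ended when other single mice were left out. That of As3mt ended without AIMD mouse 1 or vehicle mouse 7 (adjusted p of at most 0.0549), that of Gclc without AIMD mouse 5, 6 or 7 (at most 0.0556) and that of Arsg without AIMD mouse 5 or 6 or vehicle mouse 1 or 6 (at most 0.0596). Those of Hpgds, Tst, Abcb1a, Pgm1, Cdo1 and Hnmt each ended without any 1 of 5 to 11 mice (at most 0.0998).

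Among the 22 tested NRF2 targets outside the 4 families 4 rose and 7 fell (median log2 fold change -0.24), against 19.4% and 16.7% of all genes, and Gclc above is 1 of the 4. With vehicle mouse 8 left out, 3 were higher and 8 lower. Gpx2, a glutathione peroxidase of the gut epithelium, had 232 ± 79.4 and 608 ± 216 FPKM (log2 fold change -1.39, limma adjusted p = 0.000396). Me1 (-1.34, limma adjusted p = 0.000175), Blvrb (-1.23, limma adjusted p = 0.0005) and Cbr3 (-1.14, limma adjusted p = 0.000295) fell, and Nqo1, a quinone reductase, had 52.0 ± 7.90 and 73.5 ± 16.5 FPKM (-0.47, limma adjusted p = 0.0404), a call that ended without any 1 of 11 mice (adjusted p of at most 0.0814). Ftl1, a subunit of the iron store ferritin, rose (1.09, limma adjusted p = 0.0123). Nfe2l2, which encodes NRF2, had 92.7 ± 13.5 and 90.8 ± 42.4 FPKM (limma adjusted p = 0.647), and Keap1, its inhibitor, 8.39 ± 1.01 and 10.8 ± 1.57 (-0.35, limma adjusted p = 0.02).

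Of 24 tested sensors and regulators 10 rose and 1, Keap1, fell, with a median log2 fold change of 0.38, against 19.4% and 16.7% of all genes and an overall median of 0.0062. The counts were again 10 and 1 without vehicle mouse 8. Hnf4a, a nuclear receptor of the gut and liver epithelium, had 145 ± 29.2 and 61.6 ± 16.4 FPKM with no overlap (log2 fold change 1.25, limma adjusted p = 4.64e-05), and Hnf4g rose as well (1.14, limma adjusted p = 0.000286). Rxra, the partner of many nuclear receptors, rose (0.80, limma adjusted p = 0.00202), as did the drug sensors Nr1i3 or CAR (0.65, limma adjusted p = 0.0161) and Nr1i2 or PXR (22.1 ± 3.14 and 17.6 ± 2.43 FPKM, 0.31, limma adjusted p = 0.0396, ended without any 1 of 10 mice, at most 0.0917). Maff, a small partner of NRF2, rose too (0.58, limma adjusted p = 0.00948). Ahr, the aryl hydrocarbon receptor, had 1.53 ± 0.27 and 1.44 ± 0.41 FPKM (limma adjusted p = 0.67). Of 14 clock genes (median 0.23) Cry1 rose (0.99, limma adjusted p = 6.84e-05) and Npas2 fell (-0.52, limma adjusted p = 0.0198).

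Some cell type markers also differed between the groups, and the counts of each list stand against the same 19.4% and 16.7% of all genes. Of 7 smooth muscle markers 2 were called lower and 0 higher in AIMD mice, with a median log2 fold change of -0.92, and all 3 tested neuron and glia markers were lower. Of 10 epithelial markers 2 were called higher and 1 lower, and of 8 immune markers 3 higher and 1 lower. Without vehicle mouse 8, 3 epithelial markers were higher and 1 lower, 3 immune markers higher and 0 lower, and the smooth muscle, neuron and glia counts were 2 and 3 lower as before. Of 7 goblet cell markers Tff3 was higher (log2 fold change 1.14, limma adjusted p = 0.00365) and Muc2 lower (-0.77, limma adjusted p = 0.019). Of 6 fibroblast markers 1 was higher and 1 lower, and without vehicle mouse 8 1 and 0. Goblet cell markers, mostly Zg16 (means of 6452 and 5714), summed to 5877 to 11950 in AIMD mice against 3385 to 9940 in vehicle-treated mice. Fibroblast markers summed to 35.7 to 84.9 and 27.7 to 119.9, and immune markers to 124 to 399 and 75.4 to 316. Of 7 pancreas markers only Cela1 was tested, with means of 59.8 and 61.0 FPKM (limma adjusted p = 0.977), and the list summed to 43.9 to 79.2 and 25.9 to 81.8. Amy2a5 was at 0 in all mice, and Prss2 had means of 0.0513 and 0.0114. The part of these cell types in the levels of the members was not tested.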

How the data were processed

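Poly-A RNA of 7 AIMD and 8 vehicle-treated mice, labelled as separate samples, was analysed. The authors mapped reads to GRCm38 with STAR, used featureCounts with GENCODE genes for counting, and deposited FPKM for each mouse by symbol, without pooling. How counts became FPKM is not given in the sources used here. Of 45808 rows, 4 with a repeated symbol were left out. All 24279 genes above 0 gave whole reads (within 0.01 reads), for 67.6% with the GENCODE M21 exon length and for 32.4% with another length. Depth limits the precision of low members.

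Median-of-ratios size factors (13594 genes) were divided out of the FPKM, 0.5 was added and log2 taken, which understates changes of low genes. Genes reaching FPKM of 0.5 in 7 or more mice entered limma 3.58.1 (R 4.3.3; trend, two-sided, Benjamini-Hochberg over 11983 genes, threshold 0.05). The method was also run on simulated reads. These held no clock sides and no outlying mouse, so that run does not check the method for such features. The study's own model held time of sacrifice, which the labels do not give. Shared windows of 50 bases were counted in M21 transcripts. Alternatives were other pseudocounts, filters and scalings, limma voom on recovered reads, an exact permutation test, a replicate block, clock covariates and each mouse left out. The clock sides, fits and counts by side, the interaction and GTTAAT were added after the data were seen. Python 3.11.15 served for other steps.

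Members and lists were chosen with earlier results of these data known. Named in full are members called, or without overlap at a mean FPKM of at least 1 in the higher group. Uncalled tested members with a mean of at least 10 have means and p, and others have counts and ranges. Each list gives at most 5 called genes, plus Nfe2l2, Keap1, Nr1i2, Nr1i3, Ahr, Nqo1, Gclc, Gclm, Papss1, Papss2 and Ugdh.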

Additional observations from a re-analysis of the deposited data

Results flagged for a closer look

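Among 70 groups of mice examined, 2 for each of 35 quantities, 5 held a mouse far from the others by Dixon's test, which chance does in about 1 in 20 groups. Vehicle mouse 8 was the lone mouse in 3 of these, with 13.9 FPKM of Ugt2b5 (others 48.1 to 74.7), 131 FPKM of Sult1a1 (others 543 to 760) and a summed Sult level of 465.5 (others 1138 to 1740). Vehicle mouse 5 had 789.2 FPKM of Sult1d1, against 130 to 421 in the others. Vehicle mouse 1 had 43.09 FPKM of Gstt1, against 11.3 to 26.0 in the others, and leaving out any mouse left Gstt1 called lower, at a log2 fold change between -2.64 and -2.37.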

How the results depend on the processing

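Over 806 recomputed log2 fold changes of the 31 tested members, 739 kept their direction and side of the threshold, 29 lost a call, 25 gained one and 13 changed sign. The 5 members called higher and Gstt1, Gstk1, Gstp2, Gsto2, Gstm1, Gstm4, Gsta3 and Gstt3 were called in the same direction in every alternative run across the groups. The fits within each clock side are not among these runs, and there Sult2b1, Gsto2, Gstm1, Gsta3 and Gstt3 were not called on both sides. Apart from mice left out, 3 calls ended, those of Gstp1, Gstcd and Gstt2, each of them without a filter, that of Gstp1 also in the exact permutation test and that of Gstcd after quantile normalization. The fit without a filter called 6 members higher and 9 lower. These include 2 members outside the 31, both low, Ugt1a6a (higher, limma adjusted p = 0.000194) and Sult4a1 (lower, limma adjusted p = 0.0378). Leaving out 1 mouse gave 8 to 17 members lower, 5 to 6 higher and 3555 to 4643 genes called. Changes of sign were in uncalled members near 0. Gstm5 was at 0.0071 with the clock side as a factor and -0.0879 to 0.0890 with 1 mouse left out. Gsta4 was at -0.0089 with the replicate block and -0.0566 to 0.1867 with 1 mouse left out. Ugt2b34 was at 0.0351 after quantile normalization, and Ugt2b5 between -0.33 and 0.0099 with 1 mouse left out.

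With the replicate number as a block, which leaves out vehicle mouse 8, 17 members were lower, Gstm2 among them (adjusted p = 0.0304) but not Ugt2b5. Without that mouse and without the block 17 were lower too, Ugt2b5 among them but not Gstm2. The numbers do not pair the mice, since the correlation of deviations over the 7 pairs ran from -0.35 to 0.43 with 2 over 0.1, and 1 mouse correlated best with its own number. The planned quasi-likelihood count test on the recovered reads was not run. Limma voom on those reads called 5 members higher and 14 lower. The cause of the other changes was not tested. Reads of members that share exons or copies cannot be assigned better at any depth, and members below the filter rest on few reads.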
